A study of Mus musculus with 6 samples.

Results

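The genes described here are 33 targets of the hypoxia-inducible factors (HIF) that lie outside glycolysis, in tumours of the mouse glioblastoma line G422. They were chosen by symbol, with earlier results of these data known. Each of the 33 symbols named 1 Ensembl mouse gene ID in a deposited table of 54532 IDs. The rule itself used no measured value. All 33 had enough reads to be tested, among 15203 genes tested in all. RNA was sequenced from 6 tumours that grew under the skin of Kunming mice, an outbred stock, after inoculation of G422 cells. In 3 tumours the cells carried shNgb, named as a hairpin against Ngb (neuroglobin, an oxygen-binding globin), and in the other 3 the vector control shVec. Both had been introduced by lentivirus, and the labels list no further treatment. The design text names Ngb and not a hairpin as the insert, so shNgb is used below as a label. The design text calls the 3 tumours of each group independent. Whether the transduced lines were clones or pools, and whether each tumour came from its own mouse, the sources used here do not say. The p-values therefore measure the spread between these tumours, which may be technical.

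Ngb had 28, 23 and 13 reads in shVec replicates 1, 2 and 3 and 18, 19 and 11 in shNgb replicates 1, 2 and 3. The groups overlapped, with a log2 fold change of -0.59 (SE 0.42, edgeR). A difference in Ngb was thus not detectable at this depth. Libraries held between 19630319 and 25620667 reads, with mitochondrial transcripts at 1.27% to 1.46%. Of 10 glial, neural progenitor and neuronal markers, 8 stayed under 1 CPM (read counts scaled to library size) in every tumour. Among these 8, Olig2, Ptprz1 and Aqp4 had no reads, while Nes and Sox2 were present. Nes had 477, 545 and 496 CPM in shVec and 439, 383 and 419.7 CPM in shNgb, without overlap. Sox2 ranged from 13.8 to 22.6 CPM, with groups that overlapped. In bulk tumour RNA, fewer cells of a type and less RNA per cell cannot be told apart.

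HIF is a pair of proteins that switches on genes when oxygen is scarce. With oxygen present, prolyl hydroxylases mark the HIF alpha subunits for destruction through the VHL ubiquitin ligase. In hypoxia the alpha subunit escapes, pairs with ARNT and binds short DNA motifs called hypoxia response elements. Glycolytic enzymes are the best-known targets. The 33 genes here serve other ends of the response, such as removal of mitochondria, collagen modification, glycogen storage, restraint of growth, and feedback on transcription. In glioblastoma the response is known from the poorly perfused rims of necrotic areas.

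Most of the 33 genes stood lower in the shNgb tumours, and most of them were lowest in a single tumour, shNgb replicate 3. The log2 fold change (shNgb minus shVec) was below 0 in 28 of 33, where 49.1% of all genes tested were below 0. The median over the 33 was -0.24, against 0.00 over all genes tested. The lowest fold change was that of Ppp1r3c, a glycogen-targeting subunit (-1.34), which had at most 13 reads in any tumour. Next came Adm, which encodes the vasodilator adrenomedullin (-1.21), Bhlhe40, a transcriptional repressor (-1.07), and Vldlr, a lipoprotein receptor (-1.02). No gene passed the edgeR quasi-likelihood test at a Benjamini-Hochberg adjusted p under 0.05: 0 of the 33 and 0% of all genes tested were called, with 0.9997 as the smallest adjusted p. Before adjustment, 4 of the 33 (Ero1l, Higd1a, Gys1 and Mxi1) had a p under 0.05, all lower in shNgb. Over all genes tested, 2.58% reached it in either direction and 1.22% reached it with the lower level in shNgb. In 10 of the 33 every shNgb value lay below every shVec value, which held for 3.43% of all genes tested. The opposite order was found in 0 of the 33 and in 3.67% of all genes tested. Because the 33 were chosen with earlier results of these data known, these shares are a description and not a test.

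**Figure D1:**
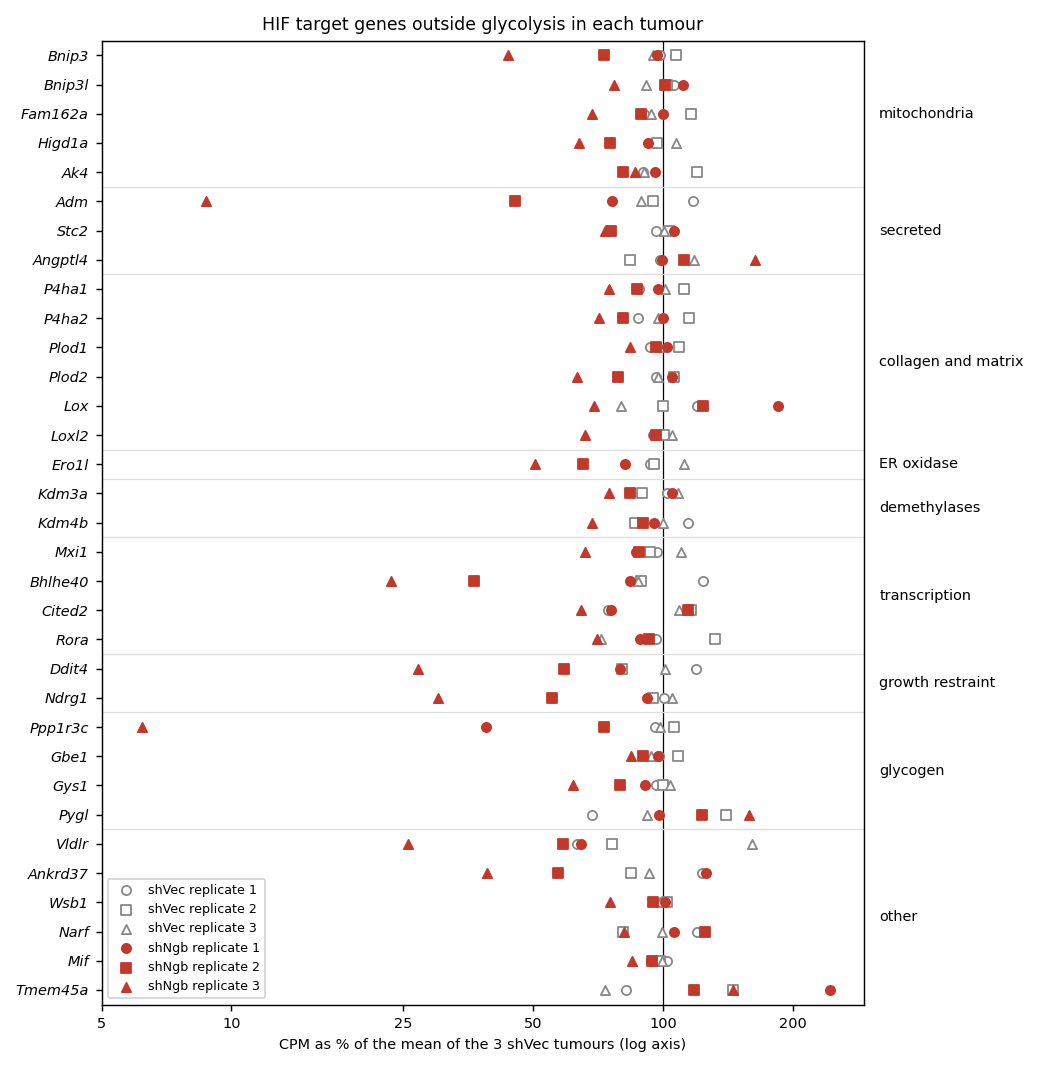
Level of each of the 33 genes in each tumour, as a percentage of the mean CPM of the 3 shVec tumours on a log axis, ordered by role. Open grey symbols are shVec and filled red symbols shNgb tumours. The red triangles, shNgb replicate 3, are the lowest of the 6 values in 28 genes and reach 8.73% of the shVec mean in Adm and 6.19% in Ppp1r3c. In that tumour Adm had 39 reads and Ppp1r3c had 1 read.

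The 3 shNgb tumours differed among themselves. Relative to the shVec mean, the median log2 level of the 33 genes was -0.04 in shNgb replicate 1, -0.20 in replicate 2 and -0.54 in replicate 3. The 3 shVec tumours stood at -0.05, 0.02 and -0.02. By this median replicate 1 lay among the vector tumours, and replicate 3 farthest from them. The number of genes below all 3 shVec values was 10 in replicate 1, 22 in replicate 2 and 29 in replicate 3, where 21.6%, 24.6% and 27.1% of all genes tested lay below. Replicate 3 held the lowest of the 6 values in 28 of 33 genes, against 20.9% of all genes tested. The SD of log2 CPM was larger among shNgb than among shVec tumours in 29 of the 33 (87.9%) and in 53.8% of all genes tested. Its median over the 33 was 0.31 in shNgb and 0.17 in shVec. Over all genes tested it was 0.17 and 0.16. The 33 genes together took 0.383%, 0.385% and 0.395% of the reads in shVec replicates 1 to 3. In shNgb the shares were 0.361%, 0.326% and 0.252%, so that by this measure replicate 1 also lay below the vector tumours.

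Single tumours weighed on these counts. Without shNgb replicate 3 the median log2 fold change was -0.12 and 27 genes stayed below 0. Without shNgb replicate 1 the median was -0.34, and 17 of the 33 had an unadjusted p under 0.05 in edgeR, against 4.89% of all genes in that fit. The groups then did not overlap, with shNgb lower, in 22 of the 33 and in 8.04% of all genes. Without shVec replicate 3 only Ero1l of the 33 had such a p, against 1.24% of all genes. Markers of host cells also differed between the tumours. The summed level of 10 T and NK cell markers was 34.5 CPM in shNgb replicate 3 and 3.72 to 16.1 CPM in the other 5 tumours. That of the 10 macrophage markers was 365 CPM against 125 to 297 CPM. Fibroblast markers (10 genes) stood at 1191 CPM in shNgb replicate 3 and at 1756 to 2461 CPM elsewhere. That low sum came from Col3a1, at 605 CPM against 1345 to 1666 CPM in the other tumours. Col1a1 went the other way, with 281 CPM in shNgb replicate 3 and 130.1 to 197 CPM in shVec. Endothelial markers (8 genes) ranged from 125 to 141 CPM over all tumours. Among tested genes, 8 of 8 T and NK cell, 9 of 9 macrophage and 7 of 8 fibroblast markers had log2 fold changes above 0. The part of these cells in the levels of the 33 genes was not tested.

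The promoters of these genes were read for the core letters of the hypoxia response element, ACGTG or GCGTG on either strand (CACGT or CACGC when read on the printed strand). RefSeq windows of 300 bases, 250 before the start site and 50 from it on (build GRCm38.p6), matched 25 of the 33 genes with 34 windows. The 8 others are Bnip3l, Angptl4, Plod2, Lox, Loxl2, Kdm4b, Bhlhe40 and Ndrg1. At least 1 match was found in 26 of the 34 windows (76.5%). The share was 60.9% in the windows of tested genes and 43.8% in all 32851 windows. Windows of a gene can overlap and repeat the same match, as in Ak4. Counted by gene, 22 of the 25 had a match in any window (88%), against 46.7% of all genes with windows. The stricter ACGTG was found in 17 windows (50%) and in 19.6% of all windows. CACGTG, which holds ACGTG on both strands and so counts as 2 matches, was found in 5 windows (14.7%) and in 7.15% of all windows. For the count by gene, and for ACGTG and CACGTG, the share among tested genes, the closer background, was not computed. Being known HIF targets, the 33 genes are no independent sample of promoters. The median log2 fold change was -0.24 in the 22 genes with a match in any window and -0.37 in the 3 without one, Gbe1, Gys1 and Vldlr. A match is a description of letters and not of binding, which was not measured here.

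The windows of the genes of smallest unadjusted p that have an entry are printed 5′ to 3′ on the strand of the gene, with matches to the core letters in capitals. They show genes with several matches (Ero1l, Higd1a), with 1 (Mxi1, the second of its 3 windows) and with none (Gys1 and Vldlr, the first of its 2 windows). Ero1l lies at chr14:45318523-45318822 (minus strand), Higd1a at chr9:121857747-121858046 (minus), Gys1 at chr7:45434589-45434888 (plus), Mxi1 at chr19:53329163-53329462 (plus), Vldlr at chr19:27216234-27216533 (plus) and Ddit4 at chr10:59951721-59952020 (minus).
Ero1l: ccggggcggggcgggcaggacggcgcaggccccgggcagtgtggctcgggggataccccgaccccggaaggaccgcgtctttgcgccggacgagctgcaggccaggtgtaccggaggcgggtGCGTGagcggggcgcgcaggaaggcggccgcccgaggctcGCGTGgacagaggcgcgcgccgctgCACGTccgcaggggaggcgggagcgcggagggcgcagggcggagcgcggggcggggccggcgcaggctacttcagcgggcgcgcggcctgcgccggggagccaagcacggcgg
Higd1a: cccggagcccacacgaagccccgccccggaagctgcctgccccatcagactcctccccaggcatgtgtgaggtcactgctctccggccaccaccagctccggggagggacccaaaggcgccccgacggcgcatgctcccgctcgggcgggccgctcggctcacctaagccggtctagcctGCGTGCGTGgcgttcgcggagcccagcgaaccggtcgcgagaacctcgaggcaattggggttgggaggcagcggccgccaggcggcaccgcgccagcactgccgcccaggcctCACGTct
Gys1: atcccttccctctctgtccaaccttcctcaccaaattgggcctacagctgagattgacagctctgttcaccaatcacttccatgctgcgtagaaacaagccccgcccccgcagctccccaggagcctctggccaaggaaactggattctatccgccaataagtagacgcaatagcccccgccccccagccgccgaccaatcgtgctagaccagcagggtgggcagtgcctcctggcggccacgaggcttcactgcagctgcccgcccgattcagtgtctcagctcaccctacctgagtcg
Mxi1: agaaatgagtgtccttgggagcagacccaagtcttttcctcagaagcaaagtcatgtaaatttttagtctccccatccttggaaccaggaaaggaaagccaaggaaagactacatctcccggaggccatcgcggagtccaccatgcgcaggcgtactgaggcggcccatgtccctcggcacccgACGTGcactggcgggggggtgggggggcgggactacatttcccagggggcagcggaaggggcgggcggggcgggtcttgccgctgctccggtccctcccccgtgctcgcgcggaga
Vldlr: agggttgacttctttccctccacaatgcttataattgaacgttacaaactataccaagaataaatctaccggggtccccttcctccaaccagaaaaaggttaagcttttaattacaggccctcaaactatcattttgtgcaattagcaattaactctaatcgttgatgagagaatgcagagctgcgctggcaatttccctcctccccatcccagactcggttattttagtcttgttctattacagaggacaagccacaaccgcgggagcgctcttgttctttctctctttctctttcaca
Ddit4: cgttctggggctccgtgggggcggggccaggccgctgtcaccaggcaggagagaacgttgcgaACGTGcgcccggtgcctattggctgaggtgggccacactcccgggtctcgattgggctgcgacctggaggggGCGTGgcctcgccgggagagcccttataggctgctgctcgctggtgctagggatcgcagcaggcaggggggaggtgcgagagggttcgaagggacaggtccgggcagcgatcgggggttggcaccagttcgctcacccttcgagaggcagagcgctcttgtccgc
Counted from the start site, the matches begin at -128, -88 and -63 in Ero1l, at -70, -66 and 44 in Higd1a, at -66 in Mxi1 and at -187 and -115 in Ddit4. The letters GCGTGCGTG in Higd1a hold 2 matches that share a base.

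**Figure D2:**
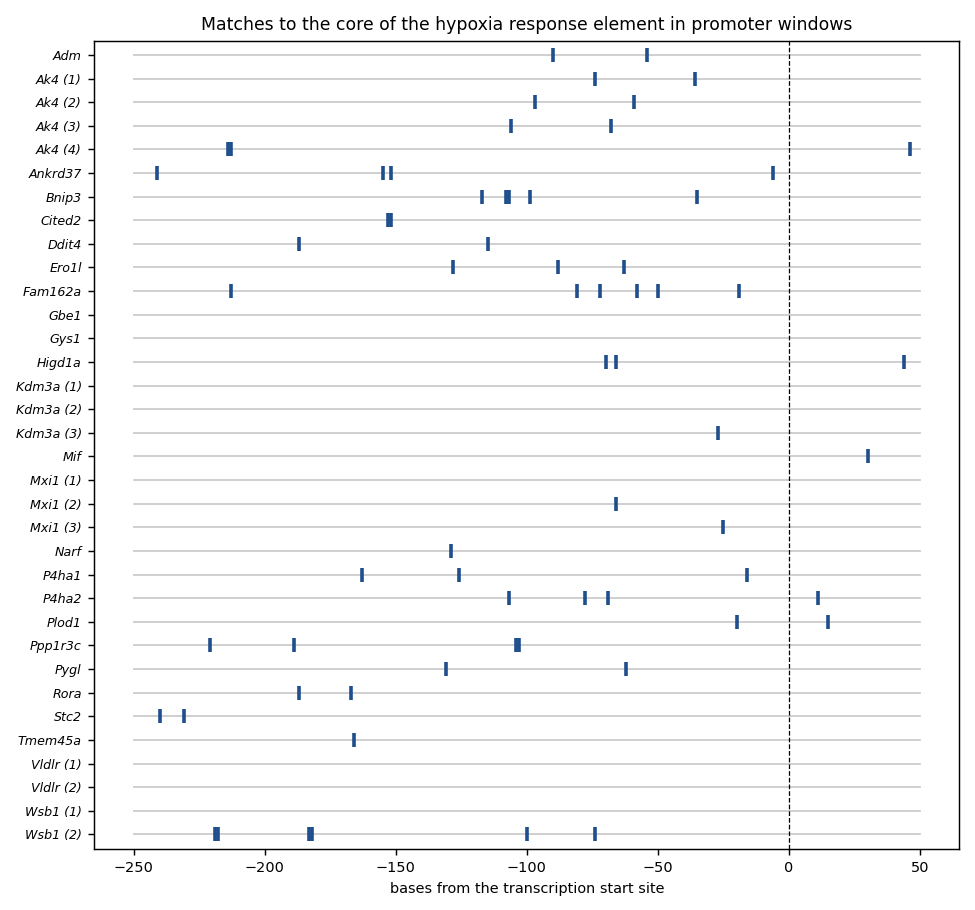
Positions of the core letters of the hypoxia response element in the 34 promoter windows of 25 genes. The x axis gives bases from the transcription start site (dashed line), each grey line is 1 window and each blue tick the first base of 1 match. Numbers in brackets tell apart several start sites of a gene, and 8 windows carry no tick.

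Ero1l, the oxidase that makes disulfide bonds during protein folding in the endoplasmic reticulum, had the smallest p of the 33. It is encoded on chromosome 14 (45283087 to 45318771, minus strand, GRCm38), and its window printed above holds 3 matches. Its CPM was 295, 301 and 354 in shVec replicates 1 to 3 and 258, 207 and 160.1 in shNgb replicates 1 to 3. All shNgb tumours lay below all shVec tumours, and replicate 3 was lowest. The means were 317 ± 32.2 and 208 ± 49.1 CPM (SD, n = 3 each), a log2 fold change of -0.60 (SE 0.17, 95% interval -0.99 to -0.22). The edgeR p was 0.00744 unadjusted and 0.9997 adjusted over all genes. Leaving out shNgb replicate 3 gave -0.45, and over all alternatives the adjusted p ranged from 0.154 to 1.

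Of the mitochondrial genes, all 5 had log2 fold changes below 0, with a median of -0.22 beside -0.24 for the 33, and 0 of 5 passed the test over all genes. Higd1a, a small inner-membrane protein of the respiratory chain, had 54.1, 54.6 and 60.5 CPM in shVec and 52.0, 42.6 and 36.1 CPM in shNgb. The groups did not overlap, though shNgb replicate 1 came close to the vector tumours. Its log2 fold change was -0.37 (SE 0.13), with an edgeR unadjusted p of 0.0198 and an adjusted p of 0.9997. Bnip3 encodes a receptor that marks mitochondria for autophagy. Its values were 115, 126 and 111 CPM in shVec and 114, 85.9 and 51.2 CPM in shNgb, so that replicate 1 overlapped with the vector tumours and replicate 3 was at 43.6% of their mean. Bnip3l, the related receptor also called NIX, had 67.7, 65.1 and 57.9 CPM in shVec and 70.7, 64.3 and 49.0 CPM in shNgb. Its log2 fold change was -0.05 (95% interval -0.36 to 0.26) and turned to 0.08 without shNgb replicate 3. The interval of Bnip3 (-1.13 to 0.15) overlaps that of Bnip3l, and the difference between the pair was not tested. Fam162a, a mitochondrial protein linked to cell death in hypoxia, averaged 114 ± 15.7 and 98.2 ± 18.2 CPM. Ak4, an adenylate kinase of the mitochondrial matrix, averaged 86.8 ± 14.8 and 76.0 ± 6.65 CPM, and both overlapped between groups.

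The genes of growth restraint were among those with the widest range over the shNgb tumours. Ddit4 encodes REDD1, an inhibitor of the growth kinase complex mTORC1, and is also a target of the integrated stress response. It had 495, 333 and 419.6 CPM in shVec and 330.3, 245 and 113 CPM in shNgb. The highest shNgb value lay just below the lowest shVec value, and replicate 3 stood at 27.1% of the shVec mean. On the log2 scale Ddit4 differed by -0.86 (SE 0.39), with a 95% interval of -1.80 to 0.08, and by -0.54 without shNgb replicate 3. Ndrg1, a differentiation-associated protein used as a marker of hypoxic tissue, had 193, 182 and 201 CPM in shVec and 176, 106 and 57.8 CPM in shNgb. Vector tumours stood close together while the shNgb tumours spread over a wide range below them. The difference was -0.76 on the log2 scale (SE 0.37), with a 95% interval of -1.67 to 0.15. It was -0.44 without shNgb replicate 3 and -1.23 without shNgb replicate 1. Both genes missed the test over all genes, with edgeR unadjusted p of 0.0661 and 0.0876.

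Of the 3 secreted factors, 2 stood lower and 1 higher on average, and 0 of 3 passed the test over all genes. Adm had 438, 321 and 299 reads in shVec and 271, 189 and 39 reads in shNgb. This is 20.0, 16.2 and 15.2 CPM against 13.1, 7.78 and 1.49 CPM, with no overlap and a wide range among the shNgb tumours. On the log2 scale Adm differed by -1.21 (SE 0.65), with a 95% interval of -2.79 to 0.36, which became -0.72 (SE 0.24) without shNgb replicate 3 and -1.89 without shNgb replicate 1. Stc2, a secreted glycoprotein hormone that is also induced by the integrated stress response, had 23.4, 25.1 and 24.4 CPM in shVec and 25.7, 18.4 and 17.9 CPM in shNgb. Its highest value of all was that of shNgb replicate 1. Angptl4, an inhibitor of lipoprotein lipase, went the other way, with 3.96, 3.38 and 4.73 CPM in shVec and 4, 4.53 and 6.55 CPM in shNgb. It was highest in shNgb replicate 3, where most of the other genes were lowest. The log2 difference in Angptl4 was 0.32 (95% interval -0.26 to 0.91).

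**Figure D3:**
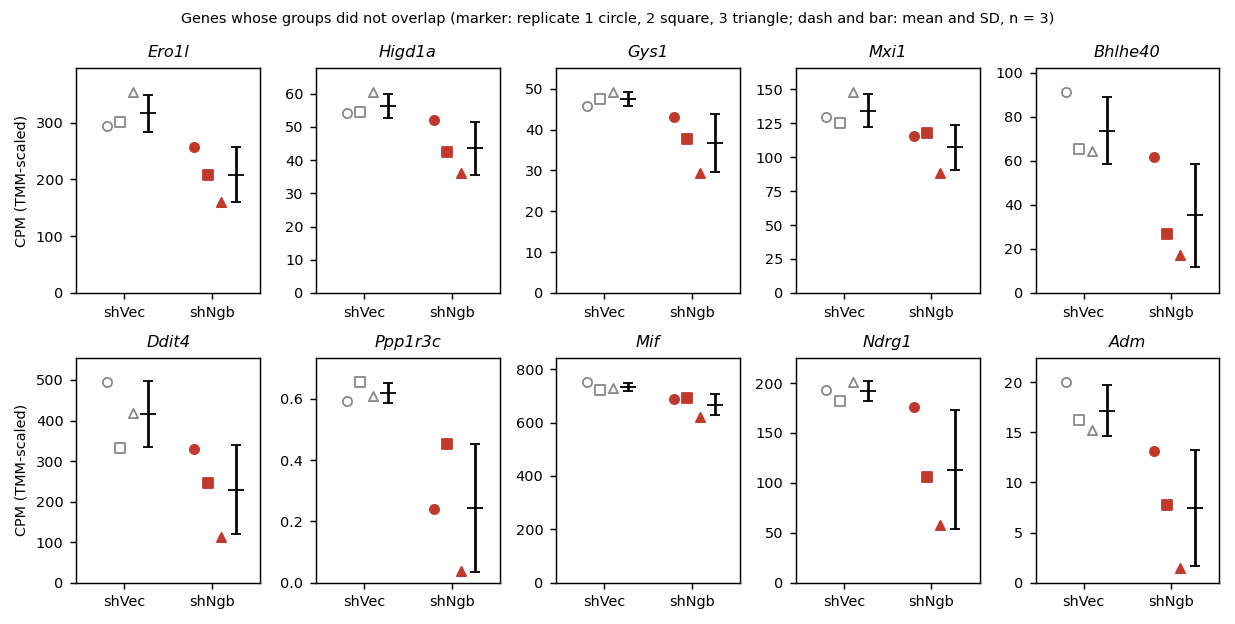
CPM (TMM-scaled, linear axes from 0) of the 10 genes in which all shNgb values lay below all shVec values, in order of p. Points are tumours (circle replicate 1, square replicate 2, triangle replicate 3), and the dash and bar give the mean and SD of 3 tumours. The gap between the groups is narrow in Ddit4, from 330.3 to 333 CPM, and shNgb replicate 3 is the lowest point in every panel.

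The collagen-modifying enzymes stood lower on average in 5 of 6 cases, with overlapping groups in all 6 and 0 called. P4ha1 and P4ha2, catalytic subunits of the prolyl hydroxylase that stabilises the collagen triple helix, were at 203 ± 24.3 and 67.2 ± 9.52 CPM in shVec and at 175 ± 22.9 and 56.3 ± 9.82 CPM in shNgb. Plod2, the lysyl hydroxylase of the collagen ends, had 364, 402 and 368 CPM in shVec and 399, 298 and 238 CPM in shNgb. Replicate 1 lay within the vector range and the other two below it. Plod1, a related lysyl hydroxylase, differed less, at 114 ± 9.30 and 107 ± 10.6 CPM with a log2 fold change of -0.09 (95% interval -0.31 to 0.13). Loxl2, an oxidase that cross-links collagen, had 59.2, 62.7 and 65.6 CPM in shVec and 59.4, 60.1 and 41.2 CPM in shNgb, so that replicate 3 alone stood apart. Lox, its better-known relative, had 7.79, 6.5 and 5.19 CPM in shVec and 12.0, 8.02 and 4.48 CPM in shNgb. The log2 difference in Lox was 0.33 (95% interval -0.45 to 1.10), and it was 0.62 without shNgb replicate 3 and -0.06 without shNgb replicate 1.

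The transcription factors and co-regulators, 4 in number, were all below 0 with a median of -0.29. Bhlhe40 had 91.3, 65.6 and 64.3 CPM in shVec and 61.8, 26.9 and 17.3 CPM in shNgb. The groups did not overlap, but shNgb replicate 1 was within 3 CPM of the lowest vector tumour while the other two stood at 36.4% and 23.4% of the shVec mean. On the log2 scale Bhlhe40 differed by -1.07 (SE 0.47), with a 95% interval of -2.20 to 0.06, and by -1.75 (SE 0.24) without shNgb replicate 1. Mxi1, an antagonist of MYC, had 129.7, 125 and 148 CPM in shVec and 116, 118 and 88.3 CPM in shNgb, again without overlap. The log2 difference was -0.32 (SE 0.12), with an edgeR unadjusted p of 0.0295 and an adjusted p of 0.9997. Cited2, which competes with HIF for the coactivators CBP and p300, had 114, 178 and 167 CPM in shVec and 116, 174 and 98.7 CPM in shNgb. The groups overlapped, with shNgb replicate 3 lowest. Rora, a nuclear receptor, was near the detection limit at 1.42 ± 0.425 and 1.19 ± 0.17 CPM.

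The histone demethylases Kdm3a and Kdm4b, enzymes that use oxygen themselves and remove methyl groups from lysine 9 of histone H3, overlapped between groups. Kdm3a averaged 109 ± 10.4 CPM in the vector tumours and 95.4 ± 16.7 CPM in the others. Kdm4b averaged 54.1 ± 7.57 and 45.8 ± 7.77 CPM. Both were lowest in shNgb replicate 3, at 75.0% and 68.3% of the shVec mean.

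Glycogen genes held the third smallest p of the 33, that of Gys1, and the lowest fold change. Gys1, the glycogen synthase of muscle and most tissues, had 45.8, 47.5 and 49.2 CPM in shVec and 43.2, 37.7 and 29.3 CPM in shNgb. The groups did not overlap, and the log2 fold change was -0.37 (SE 0.13), with an edgeR unadjusted p of 0.0221 and an adjusted p of 0.9997. Gys1 overlaps Ruvbl2 on the opposite strand, which held 448% of the reads of Gys1, and the kit does not mark strand. Ruvbl2 itself stood at 193 ± 11.5 and 179 ± 14.9 CPM, and the share of its reads in the Gys1 count was not tested. Ppp1r3c, which brings protein phosphatase to glycogen, rested on few reads, 13, 13 and 12 in shVec against 5, 11 and 1 in shNgb. Its log2 fold change of -1.34 (SE 0.64, 95% interval -2.80 to 0.12) was thus imprecise, and was -0.81 without shNgb replicate 3 and -2.19 without shNgb replicate 2. Gbe1, the glycogen branching enzyme, stood at 19.5 ± 1.48 and 17.6 ± 1.25 CPM. Pygl, the liver form of glycogen phosphorylase, was low and slightly higher in shNgb, with 0.911, 1.86 and 1.22 CPM in shVec and 1.30, 1.65 and 2.11 CPM in shNgb.

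The remaining 6 genes had no role in common and a median log2 fold change of -0.14. Vldlr had 5.19, 6.25 and 13.2 CPM in shVec and 5.30, 4.81 and 2.11 CPM in shNgb. Its vector tumours spread widely, with shVec replicate 3 high, and the groups overlapped. The log2 fold change of -1.02 (SE 0.45) became -0.49 without shVec replicate 3. Ankrd37, an ankyrin repeat protein whose induction by HIF is well known, had 12.8, 8.77 and 9.62 CPM in shVec and 13.1, 5.92 and 4.06 CPM in shNgb. Replicate 1 held the highest value of all and replicate 3 the lowest. Reads of Ufsp2, which overlaps Ankrd37 on the opposite strand, were 292% of those of Ankrd37 and differed little between groups (25.8 ± 1.53 and 25.7 ± 3.26 CPM). Mif, a cytokine that holds macrophages in place, had 752, 721 and 729 CPM in shVec and 687, 691 and 621 CPM in shNgb. The groups did not overlap in Mif, yet the log2 fold change was small, at -0.14 (SE 0.07, 95% interval -0.30 to 0.02). Wsb1, a substrate receptor of a ubiquitin ligase, had 252, 259 and 249 CPM in shVec and 257, 239.6 and 191 CPM in shNgb. Narf, a nuclear protein that binds prelamin A, overlapped between groups at 73.4 ± 14.5 and 76.3 ± 16.2 CPM (log2 fold change 0.06, 95% interval -0.38 to 0.50). Tmem45a, a transmembrane protein, was under 2 CPM throughout and averaged 0.556 ± 0.218 CPM in the vector tumours and 0.938 ± 0.365 CPM in the others, a log2 fold change of 0.74 (95% interval -0.28 to 1.76).

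**Figure D4:**
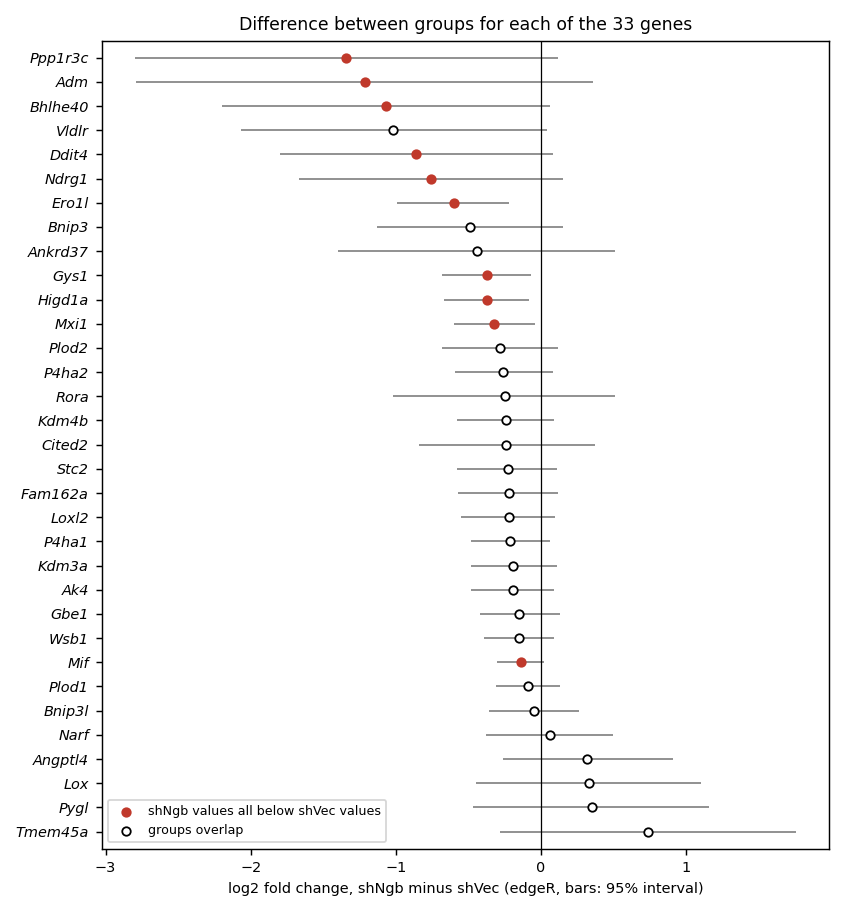
Log2 fold change (shNgb minus shVec) of each of the 33 genes with its 95% interval from edgeR, sorted by size. Filled red points mark the 10 genes whose groups did not overlap. Intervals exclude 0 in Ero1l, Gys1, Higd1a and Mxi1 alone, and 28 of the 33 points lie left of 0.

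Per length, the 33 genes covered a wide range of levels. In the FPKM values (fragments per kilobase, scaled to library size) that the authors deposited, Mif was the highest in shVec at 981 ± 22.6, followed by Ddit4 at 236 ± 46.1 and Fam162a at 134 ± 18.3 FPKM. Rora was the lowest at 0.108 ± 0.0323 FPKM, below Tmem45a at 0.177 ± 0.0691, Pygl at 0.192 ± 0.07 and Ppp1r3c at 0.227 ± 0.0116 FPKM. Of the 5 genes above 0 in log2 fold change, Narf alone exceeded 2 FPKM in shVec, at 15.2 ± 3.02 FPKM. The other 4 were Angptl4, Lox, Pygl and Tmem45a, between 0.177 and 1.34 FPKM.

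Other genes of the HIF pathway were read from lists of symbols, also chosen with earlier results of these data known. None of their members passed the test over all genes. Of the HIF subunits and their regulators, 6 of 8 tested genes were below 0, with a median of -0.05 and 0 called in either direction. Their median levels in shNgb replicates 1, 2 and 3 were 0.02, -0.03 and -0.22 relative to the shVec mean. Hif1a, the main alpha subunit, had 312, 318 and 316 CPM in shVec and 340.2, 281 and 271 CPM in shNgb, and its groups overlapped. Epas1, which encodes the HIF-2 alpha subunit, was scarce at 6.45 ± 0.584 and 7.17 ± 1.08 CPM, and Arnt stood at 83.9 ± 3.32 and 83.6 ± 10.3 CPM. The hydroxylases Egln1 and Egln3 are HIF targets as well as regulators of HIF. Egln3 had 136, 115 and 103 CPM in shVec and 109, 70.5 and 54.2 CPM in shNgb, with groups that overlapped. Egln1 averaged 237 ± 8.31 and 193 ± 38.1 CPM, with no overlap. For Egln2, the other hydroxylase of the family, the log2 fold change was -0.01 (SE 0.09), and for Vhl -0.10 (SE 0.12).

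Glycolytic targets were below 0 in all 21 tested, with a median of -0.23, and 9 of 21 had groups that did not overlap with shNgb lower, against 3.43% of all genes tested. Their median levels in shNgb replicates 1, 2 and 3 were -0.08, -0.31 and -0.33 relative to the shVec mean, so that replicates 2 and 3 stood alike. Hk2, the hexokinase that opens glycolysis in many tumours, had 111, 121 and 102 CPM in the vector tumours and 90.8, 77.9 and 82.2 CPM in the others, without overlap (log2 fold change -0.42, SE 0.09). The glycolytic enzymes Aldoa, Pgk1 and Eno1 followed in order of p, with log2 fold changes of -0.24, -0.26 and -0.21 and groups that did not overlap. Gapdh, also among the 9, had 31.9, 126 and 23.6 CPM in shVec and 22.8, 15.5 and 18.7 CPM in shNgb. Its shVec replicate 2 stood apart and the gap between the groups was narrow. By its count Gapdh was low per length, at 14.5 FPKM in shVec beside 629 for Pgk1. Copies were sought for the 33 genes alone, and the handling of multiply mapped reads is not named. The Gapdh count may therefore not give the level of the gene. Further HIF targets were below 0 in 18 of 19 tested, with a median of -0.26. Groups did not overlap, with shNgb lower, in 3 of the 19, against 3.43% of all genes tested. Medians of these genes in shNgb replicates 1, 2 and 3 were -0.21, -0.21 and -0.24, and -0.15 to 0.12 in the shVec tumours. Kdm6b, a demethylase of lysine 27 of histone H3, had the smallest p of these, with 164, 149 and 177 CPM in shVec against 133, 137 and 103 CPM in shNgb (log2 fold change -0.39, SE 0.12). Hilpda, a lipid droplet protein, followed at -0.42 (SE 0.16) with groups that overlapped. Among the rest, Vegfa, the angiogenic growth factor, had 706, 695 and 694 CPM in shVec and 607, 425 and 283 CPM in shNgb. Car9, a surface carbonic anhydrase and hypoxia marker, had 24.1, 26.7 and 29.4 CPM in shVec and 16.2, 22.7 and 8.47 CPM in shNgb, with replicate 2 the highest of the shNgb tumours. ATF4 and its targets in the integrated stress response, a program that shares Ddit4, Stc2 and Ero1l with HIF, were below 0 in all 18 tested, with a median of -0.24. Their medians in shNgb replicates 1, 2 and 3 were -0.04, -0.25 and -0.47. Groups did not overlap, with shNgb lower, in 5 of the 18, against 3.43% of all genes tested. Ppp1r15a, which encodes GADD34 and restores protein synthesis after stress, had 52.7, 47.3 and 68.3 CPM in the vector tumours and 34.7, 32.9 and 28.2 CPM in the others. Its log2 fold change was -0.81 (SE 0.15), and that of Atf4 itself -0.33 (SE 0.10). Chac1, a glutathione-degrading enzyme, stood at -0.62 (SE 0.15), and Slc3a2, an amino acid transporter subunit, at -0.32 (SE 0.10). The part of the stress response in the levels of the 33 genes was not tested.

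**Figure D5:**
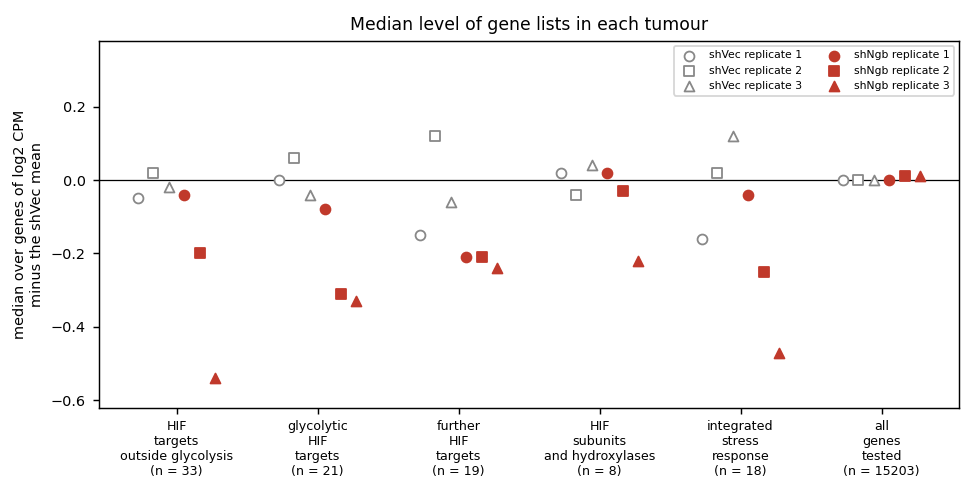
Median over the tested genes of each list of log2 CPM minus the shVec mean (y axis), in each of the 6 tumours. Open grey symbols are shVec and filled red symbols shNgb tumours. The 33 genes stand at -0.04, -0.20 and -0.54 in the shNgb tumours, the HIF subunits and hydroxylases at 0.02, -0.03 and -0.22, and all genes tested at 0.00 to 0.01.

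Near-identical copies bear on a few counts. Bnip3l-ps, a processed pseudogene of Bnip3l at 99.2% identity over 663 bases, held 8.10% of the reads of Bnip3l, and Ak3l2-ps held 2.48% of those of Ak4. The copies of Bnip3, Higd1a, Loxl2, Mif, Ndrg1 and Plod2 held under 1% each. Copies that overlap the gene itself, among them the only ones found for Ndrg1 and Plod2, were left out of the sums. When each gene was summed with its other copies, 28 of the 33 had a log2 fold change below 0. The median over the 33 was -0.24, as without summing.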

How the data were processed

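Per the labels' protocols, RNA of 6 tumours was extracted with Trizol and made into libraries with the Illumina TruSeq RNA kit, which does not mark strand. The submitters' processing notes list Bowtie 0.12.2 beside 2 builds, mm8 and mm10, and assign no role. The counting tool, annotation and handling of multiply mapped reads are not named, that is, not given in the sources used here. Deposited by the authors were a table of raw read counts per Ensembl gene and, per the file headers, FPKM values for each tumour. These served only to compare levels between genes. In the 28 of 33 genes with over 50 reads in every library, FPKM was the count times a gene and a library factor (largest relative deviation 1.0e-09).

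Symbols came from GENCODE M21 (GRCm38), which named 54495 of 54532 IDs. The 37 others held at most 0.00987% of the reads of a library. Counts were filtered with edgeR 4.0.16 defaults in R 4.3.3, TMM-scaled and compared by quasi-likelihood F-test (robust setting) over 15203 genes with Benjamini-Hochberg adjustment, calling an adjusted p under 0.05. Standard errors and 95% intervals come from the F statistic. CPM are TMM-scaled, and log2 levels use a prior count of 2. The fit was tested on simulated data. Copies were sought with blastn 2.17.0 (95% identity over 250 bases). Replicate numbers are not stated to pair tumours. As alternatives, each library size was rescaled by RLE or by upper quartile, the filter was dropped (genes with any read) or tightened to 10 reads and 1 CPM in 3 libraries, the test was replaced by limma-voom (limma 3.58.1) or DESeq2 1.42.0, and a block for replicate number was added. Others had each library left out in turn (on the same genes) or each gene summed with those of its copies that do not overlap it.

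The genes, roles and lists were chosen with earlier results of these data known. Named were Ngb, the genes of smallest p overall and per role, those opposite to the median, the highest and lowest by FPKM and, of the pathway lists, HIF subunits, hydroxylases, Vegfa, Car9 and up to 4 of smallest p each. The values of the other genes of the 33 were added after they were seen. Other marker lists had summed levels of 2.14 to 11.7 CPM (neutrophil), 5.98 to 20.8 (skeletal muscle), 2.18 to 2.99 (adipocyte) and 4.74 to 6.05 (keratinocyte). Red blood cell markers stood at 52.4 CPM in shNgb replicate 3 and at 19.8 to 37.9 CPM in the other tumours. Among the defining markers of these lists Ly6g, Krt5 and Krt1 had 0 reads. The 2 tested neutrophil markers had log2 fold changes above 0. Of these, Csf3r did not overlap between groups, with 1.09, 1.71 and 1.32 CPM in shVec and 3.91, 2.26 and 4.48 CPM in shNgb.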

Additional observations from a re-analysis of the deposited data

How the results depend on the processing

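Of 460 values of single genes under the alternatives, 456 kept their direction and stayed uncalled, and 0 became called. The 4 that changed sign came from leaving out a tumour, with ranges of -0.10 to 0.21 in Narf (below 0 without shVec replicate 2 or shNgb replicate 2), -0.06 to 0.62 in Lox (without shNgb replicate 1) and -0.17 to 0.08 in Bnip3l (without shNgb replicate 3). Over all genes tested, 3 were called with no filter beyond 1 read, 5 by DESeq2 and 1 with the replicate block, none of them among the 33. The count of the 33 with an unadjusted p under 0.05, 4 in the main analysis, was 7 by DESeq2, 9 by limma-voom and 8 with the replicate block, where 477, 410 and 426 of all genes had one. It ranged from 1 to 17 when a tumour was left out, and over all genes from 188 to 743. The median log2 fold change ranged from -0.34 to -0.12 and the count below 0 from 27 to 29 under the same omissions. With no tumour left out, the medians of single tumours had an SD of 0.18, pooled within groups. Deviations of same-numbered tumours correlated at 0.26, -0.14 and -0.10 across genes, and those of differently numbered tumours at -0.26 to 0.33. With 3 tumours per group such values can neither show nor exclude a pairing by replicate number. Ppp1r3c, Rora, Pygl and Tmem45a had at most 55 reads in every tumour, which limits their precision. The strict filter tested 31 of the 33, and the other alternatives all 33.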
